A study of Homo sapiens with 72 samples.

Results

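Omaveloxolone at 0.12 µM was tested in 4 of 72 wells of normal human dermal fibroblasts, the collagen-producing cells of the skin, here primary cells of wildtype genotype. The 4 wells were those labelled with that dose, in plate rows K and L and plate columns 7 and 17. They were set against the 32 wells labelled DMSO, the solvent alone, in plate columns 2 and 23, across every gene counted. Both groups were held for 24 hours in 384-well format and read by DRUG-seq. That method counts the 3′ ends of polyadenylated RNA from barcoded well lysates. The wells at 0.04 µM and 0.37 µM, the doses just below and just above, served to place the dose, with 4 wells each. Wells 1 and 3 at 0.12 µM lay in column 17, and wells 2 and 4 in column 7. Wells were replicates of the same cells and may be technical, so each p-value measures the spread between wells.

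Omaveloxolone, a semisynthetic triterpenoid, binds the sensor protein KEAP1, which normally hands the transcription factor NRF2 (gene NFE2L2) to the proteasome. When KEAP1 is blocked, NRF2 builds up, pairs with a small MAF protein and binds antioxidant response elements next to genes for glutathione supply, quinone reduction, NADPH supply and iron storage. BACH1 is a repressor that occupies some of the same elements, that of HMOX1 among them.

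The 4 wells at 0.12 µM held 7758810 ± 920074 counts (SD, n = 4), against 6657050 ± 932179 in DMSO wells (SD, n = 32). An exact two-sided permutation test over 58905 splits, adjusted over 3 well measures, gave p = 0.0471 for that difference. It took no account of plate side, and wells 1 and 3 of column 17 held more counts than wells 2 and 4 of column 7. The adjusted p was 0.0857 against the 4 DMSO wells in rows K and L, and 0.152, 0.0639 and 0.268 without well 1, 2 or 3. Genes detected averaged 13821 ± 443 at 0.12 µM and 13924 ± 468 in DMSO wells, with an adjusted p of 0.681 by the same exact permutation test. Fibroblast markers were plain in both groups: VIM, the intermediate filament vimentin, averaged 52285 CPM at 0.12 µM and 60343 CPM in DMSO wells, where CPM is counts per well scaled to a common total after TMM normalization. The 8 fibroblast markers summed to 60591 to 63615 CPM at 0.12 µM and 67323 to 81402 CPM in DMSO wells. In bulk wells, fewer cells of a type and less RNA per cell cannot be told apart. Other cell type markers were not all near 0. The 3 keratinocyte markers tested summed to 414 to 496 CPM at 0.12 µM and 344 to 586 CPM in DMSO wells. The 2 melanocyte markers tested summed to 14.4 to 44.2 CPM and 12.6 to 66.2 CPM, and none of these was called. The 6 pericyte and smooth muscle markers summed to 4.10 to 6.43 CPM at 0.12 µM and 3.06 to 27.4 CPM in DMSO wells. Leukocyte markers summed to at most 1.18 CPM at 0.12 µM and 4.47 CPM in DMSO wells, and endothelial markers were at 0 in the 4 treated wells and reached 5.36 CPM in DMSO wells.

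Of 14264 genes tested, 332 were called (2.33%): 187 were higher at 0.12 µM than in DMSO wells (1.31%) and 145 were lower (1.02%). A gene was called higher or lower where its adjusted p in edgeR's quasi-likelihood test (Benjamini-Hochberg over all genes) was under 0.05. A gene not called is not shown to be unchanged. With the 3.33 and 10 µM wells left out of the fit, 379 genes were called higher and 328 lower. The median log2 change over all genes was -0.07. Called rises had a median log2 change of 1.27, and 114 of the 187 were at least 2-fold. Called falls had a median of -1.37, and 110 of the 145 were at least 2-fold. Genes called higher took up 18.15% ± 1.6 of all counts at 0.12 µM and 9.35% ± 0.667 in DMSO wells, a description of genes chosen on those values. Genes called lower took up 4.45% ± 0.219 at 0.12 µM and 7.15% ± 0.243 in DMSO wells. In 145 genes, 1.02% of all, the 4 treated wells lay above each of the 32 DMSO wells, and in 90 genes, 0.631%, they lay below each of them. Against only the 4 DMSO wells in rows K and L, 48 genes of 13341 passed (0.36%). In that smaller comparison 32 of the 187 rises and 16 of the 145 falls remained called, and the 186 rises and 145 falls tested kept their direction. Of the 332 genes, 23 rises and 12 falls were called under every alternative except the fits of a single plate side, which were not counted. These are said below to hold throughout. No DMSO well lay in an inner plate column, so column position and solvent cannot be told apart there. With the 0.0005 µM wells in place of DMSO, 56 of the rises and 56 of the falls remained called. Those wells lay in columns 12 and 22, the latter beside DMSO column 23, so they do not separate position from solvent either.

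**Figure D1:**
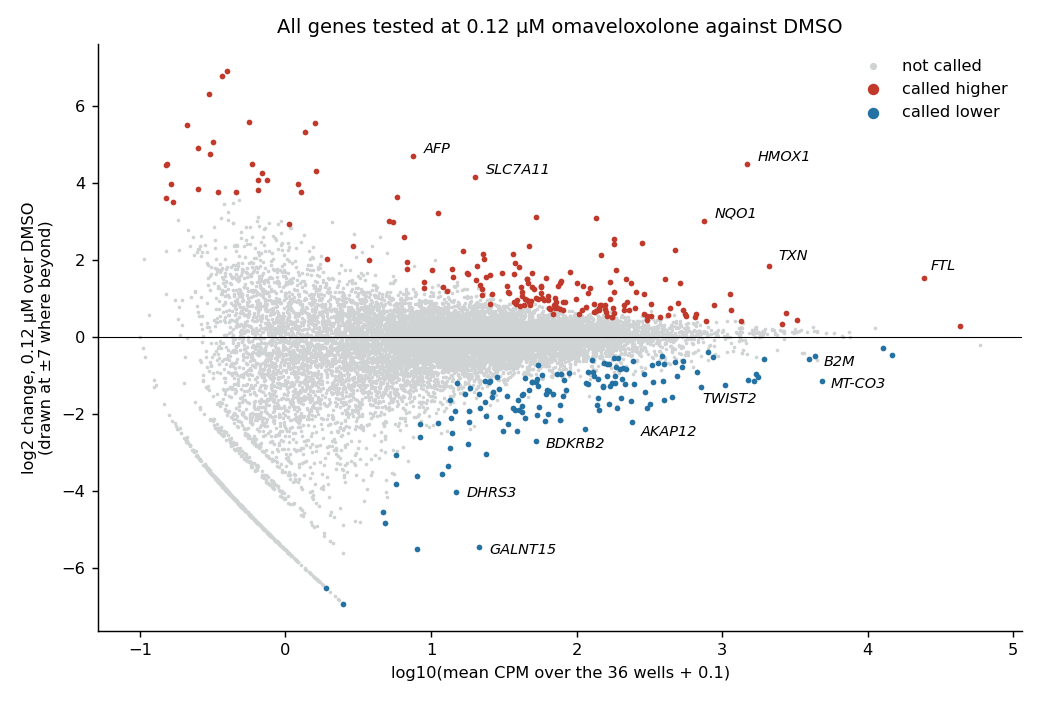
Each point is 1 gene. The x axis is log10 of the mean level over the 36 wells (CPM plus 0.1) and the y axis the fitted log2 change, 0.12 µM over DMSO, with values beyond ±7 drawn at that edge. Red marks the 187 genes called higher and blue the 145 called lower. HMOX1 stands out at a high level with a log2 change of 4.48, and the steepest called changes lie at low levels.

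Genes that NRF2 is known to drive had the highest median change of the 51 gene lists examined. For every list below, the shares over all genes to set beside it are 1.31% called higher and 1.02% called lower. Of 46 listed direct targets, 44 passed the filter on low counts, 35 were called higher and 0 lower, against 1.31% of all genes higher. Their median log2 change was 1.66, and in 33 of them the 4 treated wells lay above all 32 DMSO wells. Together the listed targets summed to 82857 to 98560 CPM at 0.12 µM and 22891 to 30118 CPM in DMSO wells, most of it from the ferritin light chain FTL. SRXN1 and GPX2 did not pass the filter. Against only the DMSO wells in rows K and L, 20 of the 44 were called higher.

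HMOX1 (ENSG00000100292, chr22:35380361-35394214 on GRCh38), which encodes heme oxygenase 1, the enzyme that opens the heme ring, had 9277, 11137, 8304 and 10576 CPM in wells 1 to 4 at 0.12 µM. DMSO wells ran from 296 through a median of 436 to 593 CPM. No treated well came near the DMSO range, and the fitted log2 change was 4.48 ± 0.13 (SE), 22.3-fold, with an adjusted p of 4.57e-44 in edgeR's quasi-likelihood test. NQO1 (chr16:69706996-69726951), the NADPH-dependent quinone reductase, had 3308, 3573, 3272 and 3376 CPM at 0.12 µM and 326 to 535 CPM in DMSO wells, median 424. Its wells were tightly grouped, and the log2 change was 3.01 ± 0.12 (adjusted p = 3.76e-34, edgeR). TXN, thioredoxin, had 5948, 6155, 5553 and 5816 CPM at 0.12 µM against 1221 to 1970 CPM, median 1606, in DMSO wells. Its log2 change was 1.85 ± 0.09, and the groups were far apart. HMOX1, NQO1 and TXN held throughout.

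**Figure D2:**
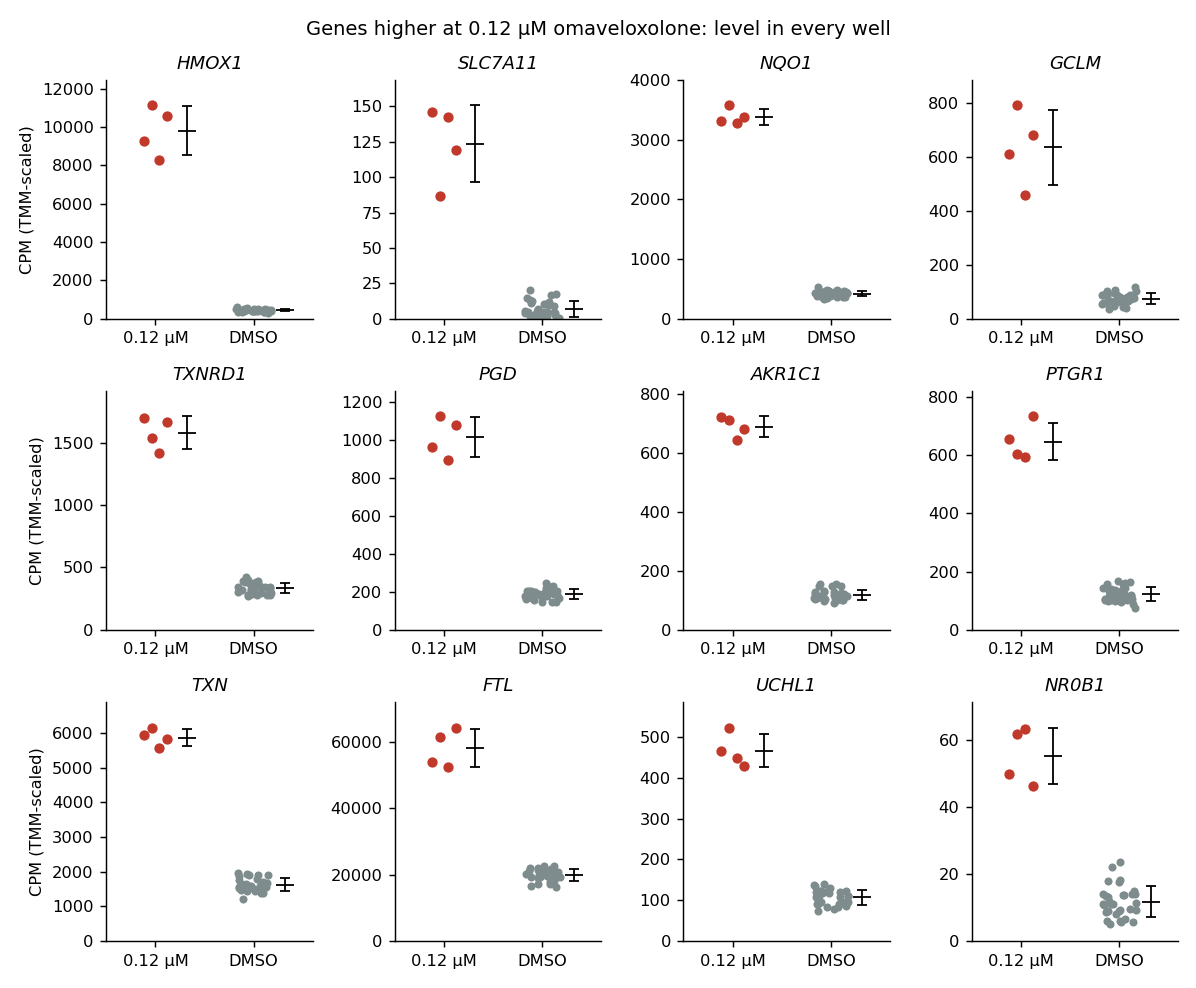
Level in every well for 12 genes called higher, in TMM-scaled CPM on a linear axis that starts at 0. Red points are the 4 wells at 0.12 µM, grey points the 32 DMSO wells, and black bars mean ± SD. In each panel the 4 red points lie above all grey points.

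In glutathione supply, the cystine carrier and the regulatory subunit of the first enzyme rose, and the catalytic subunit was not called. SLC7A11 (chr4:138164097-138242349), the cystine carrier, had 146, 87.0, 142 and 119 CPM at 0.12 µM against 0 to 20.4 CPM in DMSO wells, median 4.98. That is a log2 change of 4.14 ± 0.40, and it held throughout. Its partner chain SLC3A2 averaged 103 ± 11.9 CPM at 0.12 µM and 39.2 ± 13.1 CPM in DMSO wells (log2 change 1.40). GCLM (chr1:93885205-93909456), the modifier subunit of glutamate-cysteine ligase, had 613, 792, 457 and 680 CPM at 0.12 µM and 34.3 to 119 CPM in DMSO wells, median 75.8. Its log2 change was 3.09 ± 0.20 and held throughout. GCLC, the catalytic subunit, had 6.75, 11.7, 14.1 and 8.59 CPM at 0.12 µM against a DMSO range of 0.621 to 31.1 CPM, median 10.4. Treated wells lay inside that range, and the log2 change was -0.20 ± 0.71 (adjusted p = 0.954). GSR, which regenerates reduced glutathione, averaged 110 ± 7.51 CPM at 0.12 µM and 28.9 ± 9.06 CPM in DMSO wells, and held throughout. In the list of glutathione synthesis and use, 9 of 33 genes were higher and 1 was lower, with a median of 0.24, and 3 were higher against DMSO wells in rows K and L. GLRX, glutaredoxin (1.43), GSTM3 (1.15), MGST1 (0.82) and GSTP1 (0.60) were among the rises, the last 3 being glutathione transferases. The peroxidases GPX1 and GPX4 were not called, with log2 changes of -0.10 and -0.21. GPX3, a secreted peroxidase, fell to 7.83 ± 2.25 CPM at 0.12 µM against 19.8 ± 5.61 CPM in DMSO wells, with an adjusted p of 0.0213 that became 0.0789, 0.0741 and 0.199 without well 1, 2 or 4.

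In the thioredoxin system 4 of 18 genes were higher and 1 was lower, median 0.09, with 2 higher against DMSO wells in rows K and L. TXNRD1 (chr12:104215779-104350305), thioredoxin reductase 1, had 1702, 1538, 1420 and 1669 CPM at 0.12 µM and 271 to 420 CPM in DMSO wells, median 333. The groups did not overlap, and the log2 change of 2.25 ± 0.13 held throughout. The peroxiredoxin PRDX1 averaged 558 ± 22.0 CPM at 0.12 µM and 257 ± 49.1 CPM in DMSO wells. PRDX6 averaged 605 ± 49.3 CPM at 0.12 µM and 405 ± 37.0 CPM in DMSO wells, and its adjusted p of 0.00216 became 0.0632 without well 2. TXNIP, the thioredoxin inhibitor that also limits glucose uptake, fell to 171, 161, 161 and 146 CPM at 0.12 µM, against 236 to 403 CPM in DMSO wells. SOD1, the cytosolic superoxide dismutase, was higher by a log2 change of 0.76, while catalase (CAT) was not called at 0.18.

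In the list of pentose phosphate and NADPH enzymes 5 of 18 genes were higher, 0 were lower and 13 were not called, with a median log2 change of 0.12. Against DMSO wells in rows K and L 3 were higher. PGD, of the oxidative pentose phosphate branch, had 961, 1123, 894 and 1077 CPM at 0.12 µM against 145 to 248 CPM in DMSO wells, median 187. Its log2 change of 2.43 ± 0.15 held throughout. TALDO1 and TKT, of the non-oxidative branch, had log2 changes of 1.51 and 0.89, and the malic enzyme ME1 one of 1.68. IDH1 stood at 135 ± 33.8 CPM at 0.12 µM and 134 ± 29.7 CPM in DMSO wells and was not called.

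Quinone and carbonyl reduction accounted for 14 rises among 33 genes tested, with 0 falls and a median of 0.51, and 7 rises against DMSO wells in rows K and L. The aldo-keto reductase AKR1C1 had 722, 713, 647 and 681 CPM at 0.12 µM against 90.5 to 155 CPM in DMSO wells, median 114, and AKR1C2 and AKR1C3 had log2 changes of 1.74 and 1.41. These 3 genes are near-identical neighbours on chromosome 10, so how the counts were divided among them is uncertain. PTGR1, prostaglandin reductase 1, averaged 647 ± 63.6 CPM at 0.12 µM and 123 ± 23.0 CPM in DMSO wells. PIR, pirin, a nuclear iron protein, averaged 244 ± 41.4 CPM at 0.12 µM and 28.2 ± 11.1 CPM in DMSO wells, a log2 change of 3.11. EPHX1, the microsomal epoxide hydrolase, and NQO2 had log2 changes of 1.52 and 1.45. AKR1C1, AKR1C2, AKR1C3, PTGR1 and PIR held throughout. Of 9 tested exporters of drugs and conjugates only ABCC1 was called, at 44.6 ± 8.11 CPM against 14.2 ± 6.73 CPM in DMSO wells.

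Iron storage and heme breakdown genes rose beside HMOX1. FTL (chr19:48965301-48966878), the ferritin light chain, had 53897, 61395, 52506 and 64288 CPM at 0.12 µM against 16197 to 22600 CPM in DMSO wells, median 20006. FTH1, the heavy chain, had 2127, 2322, 2132 and 2087 CPM at 0.12 µM against 834 to 1212 CPM, median 1002. Their log2 changes were 1.54 ± 0.07 and 1.10 ± 0.12, and both held throughout, although ferritin genes have many pseudogenes that could share reads. SLC48A1, the heme carrier, averaged 111 ± 12.7 CPM at 0.12 µM and 31.3 ± 8.06 CPM in DMSO wells, and SLC40A1, the iron exporter ferroportin, 57.0 ± 15.6 CPM and 15.9 ± 8.33 CPM. BLVRB, biliverdin reductase B, and HEBP1, a heme-binding protein, had log2 changes of 0.82 and 1.17. In all, 8 of 32 heme and iron genes were higher and 1 was lower, with a median of 0.24, and 3 were higher against DMSO wells in rows K and L. TFRC, the transferrin receptor, was not called, at 17.3 ± 11.2 CPM and 13.3 ± 6.52 CPM in DMSO wells. Of 20 genes of iron-sulfur cluster assembly 0 were called by edgeR's quasi-likelihood test, 2 had an unadjusted p under 0.05 and 1 was called by the DESeq2 Wald test.

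Among 12 genes that control NRF2, 1 was called. MAFG, a small MAF partner, averaged 86.6 ± 14.8 CPM at 0.12 µM and 35.5 ± 10.9 CPM in DMSO wells, a log2 change of 1.29 ± 0.26, and was not called against DMSO wells in rows K and L. NFE2L2 itself had 172, 171, 168 and 162 CPM at 0.12 µM against a DMSO range of 87.6 to 218 CPM, median 134. Its wells lay inside that range, with a log2 change of 0.26 ± 0.20 (adjusted p = 0.676). KEAP1 averaged 87.6 ± 16.0 CPM at 0.12 µM and 59.3 ± 10.9 CPM in DMSO wells (adjusted p = 0.151), and BACH1 104 ± 27.7 CPM and 67.8 ± 18.3 CPM (adjusted p = 0.236). SQSTM1, the autophagy receptor p62, which binds KEAP1, was called, at 236 ± 24.8 CPM and 93.9 ± 9.88 CPM in DMSO wells.

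Promoter windows of RefSeq (GRCh38.p14, 250 bases before to 50 after each annotated start) were searched on both strands for the core TGACNNNGC of the antioxidant response element. It stood in 36 of 199 windows of genes called higher (18.1%), 26 of 184 windows of genes called lower (14.1%) and 2280 of 16051 windows of all genes tested (14.2%). The longer form TGACTCAGC, which also holds the site TGACTCA of AP-1 factors, stood in 8 of 199 windows of rising genes (4.02%), 3 of 184 of falling genes (1.63%) and 76 of 16051 of all genes (0.473%). A gene can have several windows, and a match is not evidence of binding. The stretches below come from the rising genes that carry the longer form, shown because this element is what NRF2 is known to bind, with the match in capitals and each read 5′ to 3′ on the gene's strand. GCLM and TXNRD1, named targets that carry the core alone, follow them.
ME1 (chr6:83431160-83431208, minus strand): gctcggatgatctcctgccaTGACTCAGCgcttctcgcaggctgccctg
SLC3A2 (chr11:62881642-62881690, plus strand): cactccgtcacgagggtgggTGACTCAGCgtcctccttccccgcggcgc
KLHL21 (chr1:6603025-6603073, minus strand): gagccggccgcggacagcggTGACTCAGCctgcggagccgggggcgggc
GSTP1 (chr11:67583726-67583774, plus strand): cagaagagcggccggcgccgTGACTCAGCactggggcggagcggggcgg
HK1 (chr10:69334364-69334408, plus strand): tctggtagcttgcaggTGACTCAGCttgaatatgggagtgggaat
PIR (chrX:15493289-15493317, minus strand): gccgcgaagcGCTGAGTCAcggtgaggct
AIFM2 (chr10:70132826-70132867, minus strand): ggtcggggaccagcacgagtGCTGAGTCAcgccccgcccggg
GNPDA1 (chr5:142013079-142013127, minus strand): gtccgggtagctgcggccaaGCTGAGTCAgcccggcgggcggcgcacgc
GCLM (chr1:93909436-93909484, minus strand): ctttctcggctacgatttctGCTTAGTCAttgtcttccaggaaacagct
TXNRD1 (chr12:104286910-104286958, plus strand): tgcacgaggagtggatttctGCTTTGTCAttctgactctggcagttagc

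The element of PIR, AIFM2, GNPDA1, GCLM and TXNRD1 reads on the opposite strand. It begins 137 bases before the start of ME1, 37 before that of SLC3A2, 66 before that of GSTP1, 34 before that of GCLM and 26 past that of PIR. KLHL21, a substrate adaptor of CUL3 ligases, averaged 78.2 ± 16.3 CPM at 0.12 µM and 37.6 ± 9.34 CPM in DMSO wells. AIFM2, also called FSP1, which regenerates lipid-soluble antioxidants, averaged 41.9 ± 8.18 CPM at 0.12 µM and 19.7 ± 4.71 CPM in DMSO wells, with an adjusted p of 0.0061 that became 0.128 without well 4. HK1, a hexokinase, was called at 0.00565 and gave 0.0596 without well 1 and 0.138 without well 2, and GNPDA1, an enzyme of amino sugar breakdown, was called at 0.00487 and reached 0.0585 without well 4.

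Other rises came from varied levels in DMSO wells, and OSGIN1 among them belongs to the core NRF2 genes. UCHL1, a ubiquitin hydrolase best known from neurons, had 465, 523, 449 and 428 CPM at 0.12 µM against 74.1 to 140 CPM in DMSO wells, median 109. POPDC3, a membrane protein of the Popeye family, had 168, 172, 153 and 170 CPM at 0.12 µM against 18.8 to 86.8 CPM. NR0B1, the nuclear receptor DAX1, averaged 55.2 ± 8.40 CPM at 0.12 µM and 11.7 ± 4.66 CPM in DMSO wells, and SERPINB2, an inhibitor of plasminogen activators, 117 ± 31.2 CPM and 26.3 ± 10.7 CPM. OSGIN1, a stress-induced growth inhibitor, averaged 31.4 ± 8.47 CPM at 0.12 µM and 2.52 ± 2.41 CPM in DMSO wells. These 5 genes held throughout. TRIM16 and TRIM16L, near-identical genes whose reads may be shared, had log2 changes of 2.16 and 3.21. TUBA4A, an alpha tubulin, averaged 69.6 ± 7.02 CPM at 0.12 µM and 17.2 ± 6.77 CPM in DMSO wells.

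Some rises started from near 0. AFP, the fetal liver albumin homologue, named here after its values were seen, had 51.4, 52.3, 57.6 and 42.8 CPM at 0.12 µM against 0 to 8.31 CPM in DMSO wells, median 0.702. The groups did not overlap and the call held throughout, while the hepatocyte markers summed to 6.49 to 17.7 CPM at 0.12 µM and 1.44 to 19.5 CPM in DMSO wells, with ALB, APOA1, APOB and HNF4A below the filter. AKR1B10, an aldo-keto reductase, had 5.96, 15.0, 7.40 and 9.60 CPM at 0.12 µM and at most 2.79 CPM in any DMSO well. CXCL8, the neutrophil chemokine interleukin-8, had 2.78, 0, 5.34 and 1.52 CPM at 0.12 µM and 0 counts in all 32 DMSO wells. It was called by edgeR at an adjusted p of 2.76e-06, but the DESeq2 Wald test gave 0.492, and no fold is given against a group at 0. EDNRB, an endothelin receptor, and the chemokine CXCL3 were called at 0.0465 and 0.0445, and both calls were lost when 1 of several wells was left out. The adjusted p of EDNRB was 0.0716, 0.228 and 0.315 without well 1, 2 or 3, and that of CXCL3 0.0935 and 0.736 without well 1 or 2.

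Several other lists had fewer calls, and those of the proteasome, heat shock and glycolysis had 0 against DMSO wells in rows K and L. Of 36 proteasome subunits 33 had a positive log2 change, with a median of 0.35, but 3 were called: PSMD14, PSMB7 and PSMA7, at 0.92, 0.59 and 0.54. PSMD14 gave 0.0921 and 0.14 without well 3 or 4, PSMA7 0.148 and 0.074 without well 2 or 4, and PSMB7 0.0851 to 0.238 without any one of the 4 wells. HSPA8 and HSP90AB1, the abundant cytosolic chaperones, had log2 changes of 0.60 and 0.41 and were the 2 calls among 26 heat shock genes. HSP90AB1 averaged 1726 ± 79.9 CPM at 0.12 µM and 1301 ± 75.5 CPM in DMSO wells. In glycolysis 4 of 19 genes were higher and the median was 0.44. PFKP, a phosphofructokinase, rose to 95.2 ± 15.3 CPM at 0.12 µM, against 47.5 ± 12.3 CPM in DMSO wells, and GAPDH averaged 4243 ± 578 CPM and 3136 ± 289 CPM. Without well 2 the adjusted p was 0.105 for ENO1, enolase, and 0.0517 for GAPDH. Of 27 genes driven by ATF4, the amino acid stress factor, 3 were higher and 1 was lower, with a median of -0.01. PSAT1 of serine synthesis was higher (1.15), and DDIT4, an inhibitor of mTOR signalling, was lower (-1.90). SLC7A5, an amino acid carrier, had a log2 change of 1.75, with an adjusted p of 0.0363 that became 0.126, 0.18 and 0.205 without well 1, 2 or 3. ATF5, a transcription factor, had one of 0.82, with an adjusted p of 0.0205 that became 0.207, 0.19 and 0.0591 without the same wells. AHR, the aryl hydrocarbon receptor, averaged 177 ± 27.2 CPM at 0.12 µM and 89.6 ± 22.3 CPM in DMSO wells. Its target TIPARP averaged 45.2 ± 8.56 CPM and 14.5 ± 8.70 CPM, with an adjusted p of 0.0109 that became 0.112 without well 4. CDKN1A, the cell cycle inhibitor p21, averaged 236 ± 19.0 CPM and 166 ± 19.5 CPM, with an adjusted p of 0.00353 that became 0.0603 without well 1.

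The large falls included GALNT15, a glycosyltransferase that starts O-linked sugar chains. GALNT15 (chr3:16174649-16231992) had 0.265, 1.05, 0.728 and 0 CPM at 0.12 µM against 9.47 to 60.4 CPM in DMSO wells, median 23.4. No treated well reached the lowest DMSO well, and the log2 change was -5.45 ± 0.81 (adjusted p = 7.71e-07, edgeR). VSIR, an immune checkpoint ligand, averaged 3.15 ± 2.26 CPM at 0.12 µM and 26.2 ± 7.01 CPM in DMSO wells. AKAP12, a scaffold of protein kinase A, had 60.1, 53.6, 60.2 and 54.4 CPM at 0.12 µM against 177 to 371 CPM in DMSO wells, median 261. ADGRD1, an adhesion G-protein-coupled receptor, averaged 18.9 ± 10.5 CPM at 0.12 µM and 84.6 ± 27.7 CPM in DMSO wells. All 4 held throughout.

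**Figure D3:**
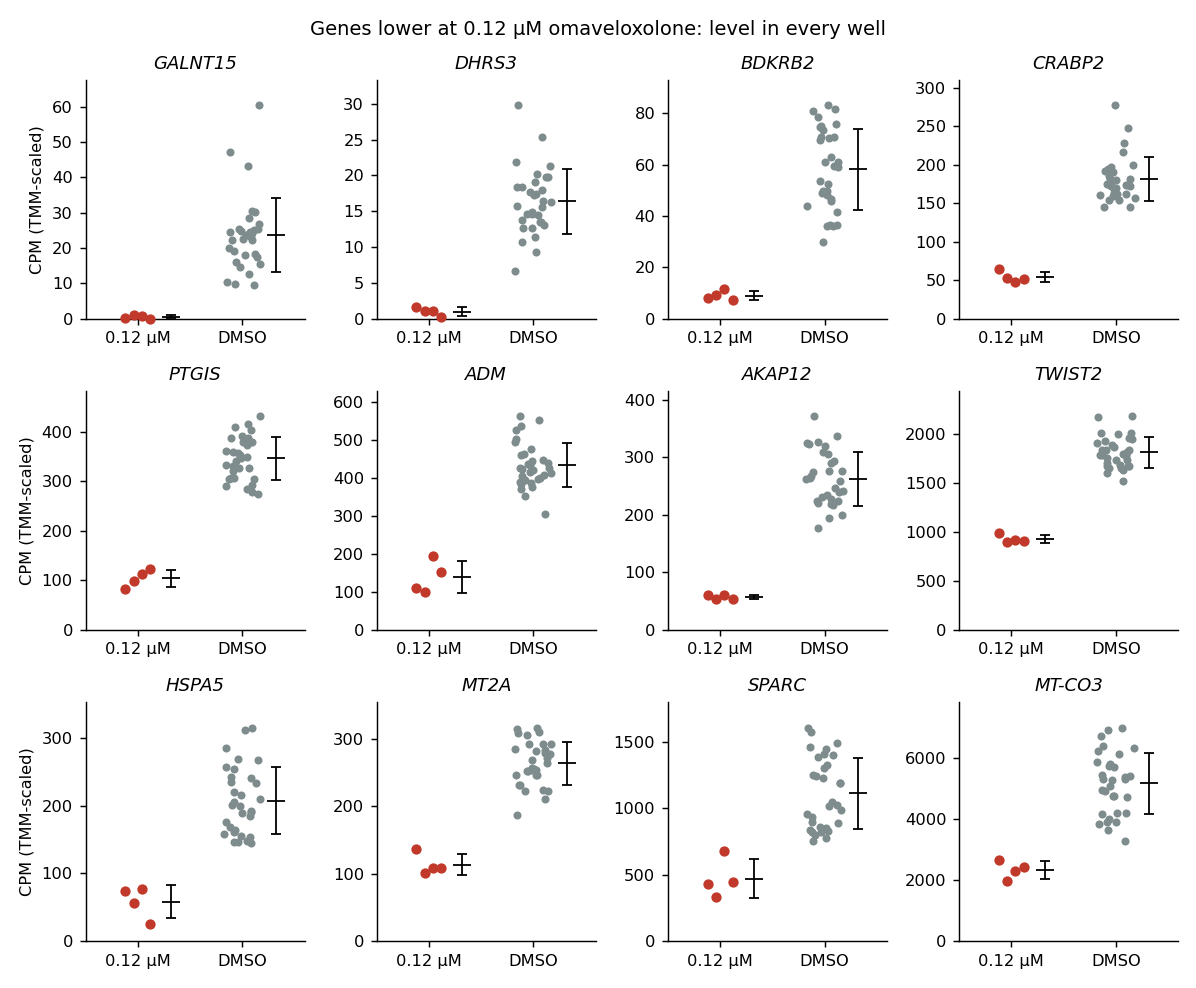
Level in every well for 12 genes called lower, in TMM-scaled CPM on a linear axis that starts at 0. Red points are the 4 wells at 0.12 µM, grey points the 32 DMSO wells, and black bars mean ± SD. In each panel the 4 red points lie below all grey points, with AKAP12 at 53.6 to 60.2 CPM.

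Retinoid handling fell at 2 steps. DHRS3 (chr1:12567910-12617731), which turns retinaldehyde back to retinol and is itself a retinoic acid target, had 1.59, 1.05, 1.09 and 0.168 CPM at 0.12 µM against 6.71 to 29.8 CPM in DMSO wells, median 16.0. CRABP2, the carrier that takes retinoic acid to its nuclear receptor, had 64.2, 52.6, 47.9 and 52.0 CPM at 0.12 µM against 145 to 277 CPM, median 174. The log2 changes were -4.02 ± 0.54 and -1.74 ± 0.21, and both held throughout. RARG, the receptor, was called at an adjusted p of 0.0424, which was 0.0769 to 0.234 without any one of the 4 wells. In the list of 19 retinoid genes 3 were lower and 0 higher, with a median of -0.70, against 1.02% of all genes lower. The median was -0.23 against the 0.0005 µM wells, and 2 genes were lower against DMSO wells in rows K and L.

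Vasoactive and prostanoid genes gave 4 falls and 1 rise among 24 tested, with a median of 0.08, and 2 falls against DMSO wells in rows K and L. BDKRB2, the constitutive bradykinin receptor, had 8.21, 9.17, 11.4 and 7.24 CPM at 0.12 µM against 29.9 to 83.2 CPM in DMSO wells, median 59.4, and held throughout. BDKRB1, the inducible receptor, also on chromosome 14, had 0.132, 0.301, 1.94 and 0.337 CPM at 0.12 µM against 1.29 to 18.7 CPM. PTGIS, prostacyclin synthase, had 83.1, 98.1, 113 and 123 CPM at 0.12 µM against 274 to 431 CPM, median 348, and held throughout. PTGES, prostaglandin E synthase, averaged 14.2 ± 5.43 CPM at 0.12 µM and 57.9 ± 9.63 CPM in DMSO wells. PTGS2, the inducible cyclooxygenase that feeds both, had 11.1 CPM in well 2 and 0 in the other 3 treated wells, and was not called. ADM, the vasodilator adrenomedullin, was counted in the hypoxia list, as its 1 fall among 15 genes tested. It had 111, 100, 195 and 151 CPM at 0.12 µM against 305 to 562 CPM in DMSO wells, median 425. Its log2 change of -1.64 ± 0.17 held throughout.

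Genes that mark fibroblasts fell in part. Of 18 identity genes 6 were lower and 0 higher, with a median of -0.57, and 1 was lower against DMSO wells in rows K and L. TWIST2, a transcription factor of dermal mesenchyme, had 985, 899, 915 and 905 CPM at 0.12 µM against 1522 to 2178 CPM in DMSO wells, median 1793, and held throughout. Its relative TWIST1 averaged 361 ± 17.5 CPM at 0.12 µM and 556 ± 48.5 CPM in DMSO wells. CD248, endosialin, averaged 69.4 ± 23.0 CPM and 140 ± 33.5 CPM. CD34, a surface glycoprotein of some fibroblasts, had at most 0.607 CPM at 0.12 µM, and its DMSO wells ran from 0.16 to 14.5 CPM. The adjusted p of CD34 was 0.00565 and became 0.0532 without well 2, and that of FSTL1, a secreted glycoprotein, was 0.0264 and became 0.079, 0.251 and 0.29 without well 1, 2 or 4. OSR2, a transcription factor, and CCN5, a matricellular growth inhibitor, named after their values were seen, held throughout at log2 changes of -1.42 and -1.57.

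Few matrix genes were called. Of 40 glycoproteins and proteoglycans 3 were lower and 0 higher, and 4 had a positive change, with a median of -0.62. Against DMSO wells in rows K and L the median was -0.32 and 0 were called. SPARC, a collagen-binding matricellular protein, had 428, 333, 676 and 442 CPM at 0.12 µM against 753 to 1607 CPM in DMSO wells, median 1035. Its log2 change was -1.24 ± 0.23. LUM, lumican, and THBS2, thrombospondin 2, were called at 0.0359 and 0.0191. Without well 1, 2 or 4 the adjusted p was 0.126, 0.284 and 0.181 for LUM and 0.0903, 0.193 and 0.103 for THBS2. Of 19 collagen chains 0 were called by edgeR's quasi-likelihood test, 5 had an unadjusted p under 0.05 and 2 were called by the DESeq2 Wald test. COL1A1 had 2824, 1974, 4076 and 2021 CPM at 0.12 µM against 1385 to 7098 CPM in DMSO wells, median 3389, so the treated wells lay inside the DMSO range (log2 change -0.42 ± 0.26, adjusted p = 0.554). COL1A2, COL3A1, FN1 and DCN had log2 changes between -0.59 and -0.38, and none was called. In COL1A1, COL1A2, COL3A1, FN1 and DCN, wells 1 and 3 of column 17 were each higher than wells 2 and 4 of column 7. The 19 collagen chains had a median of -0.39, and of -0.22 and -0.60 in fits of the left and right plate sides alone. The cause of that difference was not tested.

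Of 21 matrix proteases and inhibitors 3 were lower and 0 higher, with a median of -0.44. Of 26 growth factors and binding proteins 5 were lower and 0 higher, with a median of -0.26. Against DMSO wells in rows K and L 0 genes of either list were called. PLAU, urokinase, had 30.3, 34.4, 38.6 and 36.5 CPM at 0.12 µM against 61.5 to 135 CPM in DMSO wells, median 87.3. TIMP3, an inhibitor of metalloproteases, averaged 81.0 ± 19.5 CPM at 0.12 µM and 258 ± 59.3 CPM in DMSO wells. PLAT, tissue plasminogen activator, was called at an adjusted p of 0.0279, which was 0.201, 0.211 and 0.0778 without well 1, 2 or 4. IGFBP3, a carrier of insulin-like growth factors, averaged 311 ± 92.8 CPM at 0.12 µM and 763 ± 158 CPM in DMSO wells, and SFRP1, a WNT antagonist, 7.66 ± 4.23 CPM and 36.7 ± 10.7 CPM. BMP4 averaged 6.58 ± 4.41 CPM and 23.5 ± 6.93 CPM, with an adjusted p of 0.00477 that became 0.0731 without well 1 and 0.0602 without well 2. FGF7, keratinocyte growth factor, had 5.03, 8.12, 40.8 and 4.55 CPM at 0.12 µM and was called at 0.0473, with 0.253, 0.261 and 0.292 without well 1, 2 or 4. CXCL12, a stromal chemokine, averaged 908 ± 179 CPM at 0.12 µM and 1859 ± 297 CPM in DMSO wells.

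Some chaperones of the endoplasmic reticulum fell. Of 26 tested, 4 were lower and 0 higher, beside 1.02% and 1.31% of all genes. The median was -0.37, and 0 were lower against DMSO wells in rows K and L. HSPA5, the lumenal chaperone BiP, had 73.9, 56.1, 77.2 and 24.9 CPM at 0.12 µM against 145 to 315 CPM in DMSO wells, median 200. The groups did not overlap, and the log2 change was -1.84 ± 0.30 (adjusted p = 1.01e-05, edgeR). CALR, calreticulin, averaged 188 ± 51.9 CPM at 0.12 µM and 419 ± 84.2 CPM in DMSO wells. HSP90B1 was called at 0.00714, with 0.143 without well 2 and 0.0656 without well 4. PDIA3 was called at 0.0132, with 0.088, 0.135 and 0.103 without well 1, 2 or 4. Of 13 metallothionein and zinc genes 3 were lower and 0 higher, and 4 had a positive change. MT2A, a metallothionein that binds zinc and copper, had 137, 100, 108 and 109 CPM at 0.12 µM against 187 to 317 CPM, median 261. MT1E and MT1M, which share sequence with their neighbours, were called at 0.0318 and 0.0228. MT1E gave 0.102, 0.177 and 0.181 without well 2, 3 or 4, and MT1M 0.0951, 0.189 and 0.068 without well 1, 2 or 3. Against DMSO wells in rows K and L 1 gene of that list was lower.

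Messenger RNAs of the mitochondrial genome were lower. They made up 0.449% ± 0.0876 of counts at 0.12 µM and 0.955% ± 0.173 in DMSO wells. The 4 treated wells held 0.539%, 0.347%, 0.502% and 0.409%, all under the lowest DMSO well of 0.600%. The exact two-sided permutation test gave an adjusted p of 5.09e-05, from a raw p of 1.7e-05 that is the smallest its splits allow. It took no account of plate side, and wells 2 and 4 of column 7 held a smaller share than wells 1 and 3 of column 17. Against the 4 DMSO wells in rows K and L the difference was -0.418 percentage points, with a raw p of 0.0286 and an adjusted p of 0.0857 in the exact permutation test. The raw p is the smallest that 4 wells against 4 allow in a two-sided test, and the 4 treated wells all lay below the lowest of those DMSO wells, at 0.758%. Of 13 mRNAs 4 were called lower and 9 were not called, 2 had a positive change, and the median log2 change was -0.90. The median was -0.42 against the 0.0005 µM wells and -0.79 against DMSO wells in rows K and L, where 0 were called. MT-CO3, a subunit of cytochrome oxidase, had 2654, 1952, 2308 and 2428 CPM at 0.12 µM against 3261 to 6996 CPM in DMSO wells, median 5294. The 13 mRNAs together summed to 3892.5 to 5849.4 CPM at 0.12 µM and to a median of 10006 CPM in DMSO wells. MT-CO3 thus made up a large part of the summed level and of its fall. MT-CO1 averaged 804 ± 265 CPM at 0.12 µM and 1767 ± 293 CPM in DMSO wells. MT-ATP6, whose gene overlaps its neighbour, was called at 0.0128, with 0.138 without well 2 and 0.102 without well 4. MT-ND2 was called at 0.0359, with 0.251, 0.0503 and 0.273 without well 2, 3 or 4. Of 46 respiratory chain subunits encoded in the nucleus 1 was called, beside 2.33% of all genes, and 38 had a positive change. The called gene was COX7B, at 24.2 ± 3.73 CPM at 0.12 µM and 126 ± 42.6 CPM in DMSO wells.

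Of 44 interferon-stimulated genes 1 was higher and 3 were lower, beside 1.31% and 1.02% of all genes. The median was -0.41, and it was -0.61 on the left plate side and -0.07 on the right. B2M, the light chain of MHC class I, averaged 3199 ± 456 CPM at 0.12 µM and 4471 ± 350 CPM in DMSO wells. IFIT1 was called lower at 0.0181, with 0.0926, 0.136 and 0.0831 without well 2, 3 or 4. IFIT2 was called lower at 0.0268, with 0.0879 to 0.131 without any one of the 4 wells, and DMSO wells held up to 149 CPM of IFIT1 and 192 CPM of IFIT2. Of 40 cell division genes 2 were lower, beside the same 1.02%. Their median was -0.45, and it was -0.76 on the left plate side and -0.21 on the right. KIF20A, a mitotic kinesin, was called at 0.0099, with 0.0687 without well 2 and 0.0778 without well 4, and MKI67 was not called, with 37.5, 5.41, 57.3 and 28.1 CPM at 0.12 µM against 22.6 to 91.3 CPM in DMSO wells. Of 46 ribosomal protein genes, 26 genes of cholesterol synthesis and uptake and 26 splicing factors, 0 were called by edgeR's quasi-likelihood test, with medians of 0.13, -0.11 and 0.13. In the same order 6, 1 and 1 had an unadjusted p under 0.05, and 1, 0 and 0 were called by the DESeq2 Wald test.

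**Figure D4:**
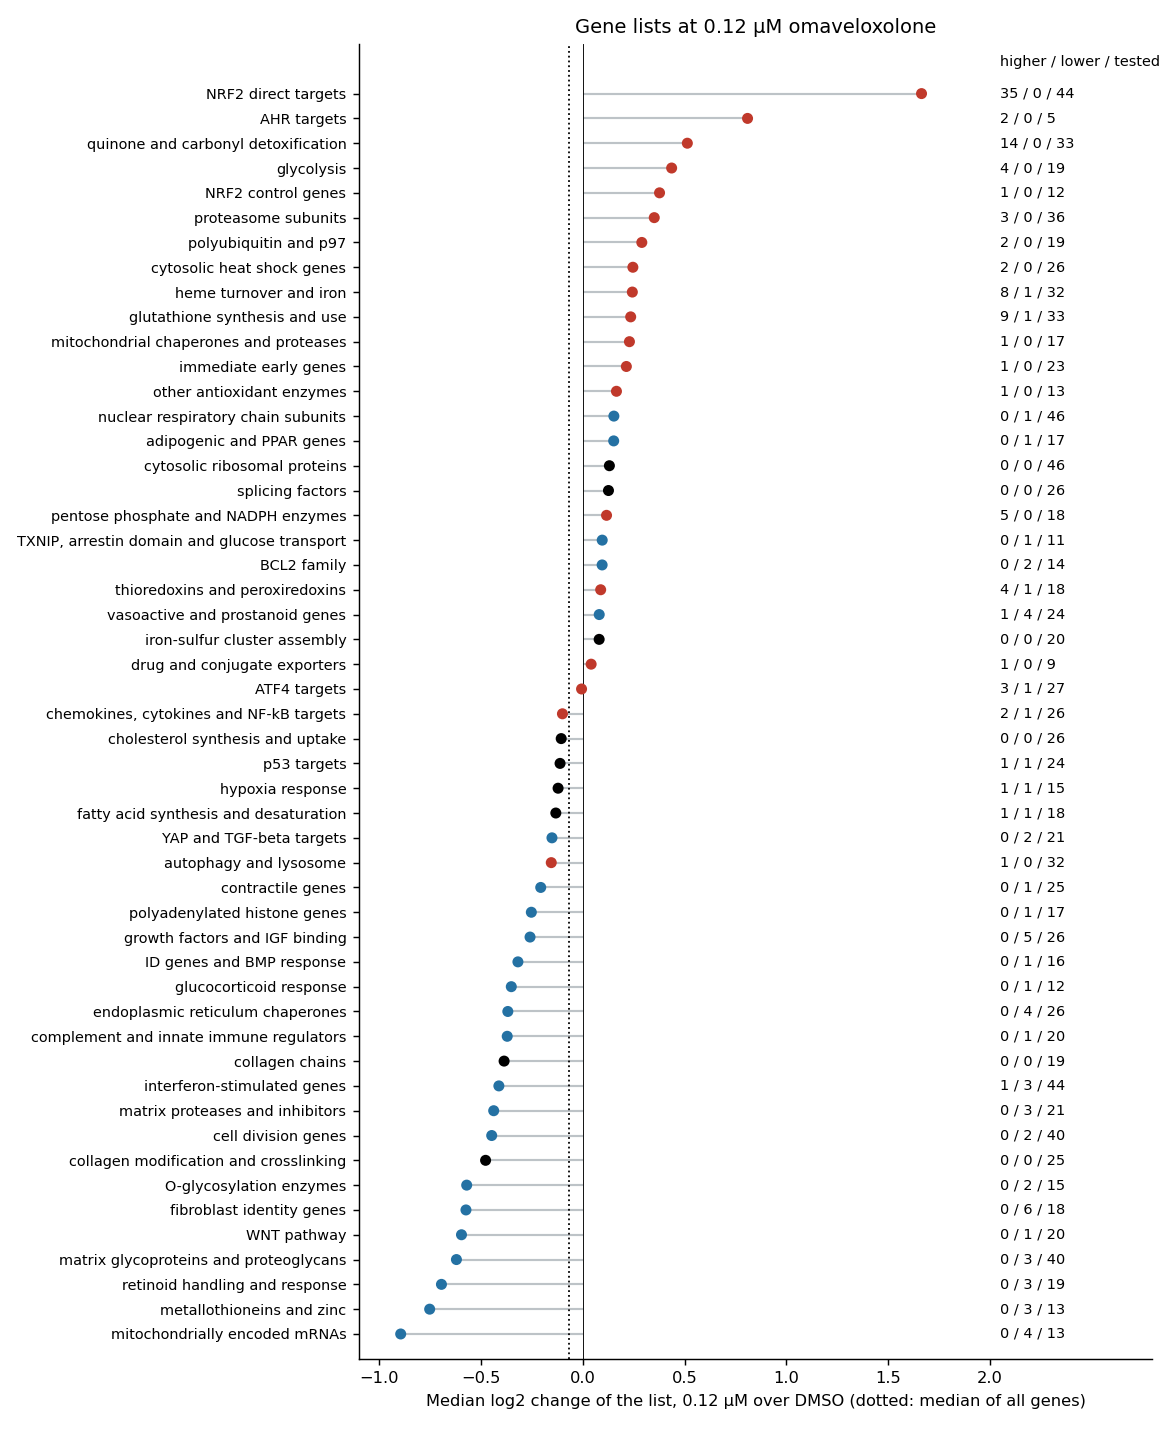
Median log2 change, 0.12 µM over DMSO, of each of 51 gene lists, sorted, with the number of members called higher, called lower and tested at the right. Red points have more rises than falls, blue points more falls than rises, black points equal numbers, and the dotted line is the median of all genes at -0.07. The NRF2 targets stand apart at 1.66, and mitochondrially encoded mRNAs are lowest at -0.90.

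Set against the dose below, 0.12 µM differed from 0.04 µM in 2 genes of 14264 (0.014%), 1 higher and 1 lower (0.00701% each). HMOX1 was higher, at 9823 ± 1278 CPM at 0.12 µM and 2930 ± 476 CPM at 0.04 µM (log2 change 1.75, adjusted p = 3.15e-06, edgeR). MT-CO3 was lower, at 2336 ± 293 CPM at 0.12 µM and 5579 ± 715 CPM at 0.04 µM (log2 change -1.26, adjusted p = 0.0138), and that adjusted p became 0.177, 0.103 and 0.0712 without well 2, 3 or 4. With the replicate number as a block 0 genes were called lower at this step. NQO1 stood at 3382 ± 134 CPM at 0.12 µM and 2637 ± 128 CPM at 0.04 µM, and TXN at 5868 ± 252 CPM and 4927 ± 277 CPM, neither of them called. With 4 wells a dose, a difference that missed the threshold is not shown to be absent.

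The step up to 0.37 µM called 1159 genes (8.13%), 360 higher (2.52%) and 799 lower (5.6%) at 0.37 µM than at 0.12 µM. The 2 comparisons share the 0.12 µM wells, so their values are given side by side. HMOX1 stood at 15926 ± 1508 CPM at 0.37 µM and NQO1 at 5573 ± 71.8 CPM, both called higher than at 0.12 µM. AKR1C3 stood at 500 ± 128 CPM at 0.37 µM and 1141 ± 88.9 CPM at 0.12 µM, and TKT at 240 ± 9.64 CPM and 841 ± 76.9 CPM, both called lower at 0.37 µM. SLC40A1 stood at 8.25 ± 6.26 CPM at 0.37 µM and 57.0 ± 15.6 CPM at 0.12 µM, also called lower. MT2A stood at 832 ± 156 CPM at 0.37 µM and 114 ± 16.0 CPM at 0.12 µM, and HSPA5 at 352 ± 167 CPM and 58.0 ± 23.9 CPM, both called higher at 0.37 µM than at 0.12 µM. MT-CO3 stood at 49.1 ± 12.9 CPM at 0.37 µM against 2336 ± 293 CPM at 0.12 µM, and was called lower at 0.37 µM. Scaling by DESeq2 size factors moved the median of all genes at this step to 0.27, against -0.01 with TMM, so small changes between these doses depend on the scaling.

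**Figure D5:**
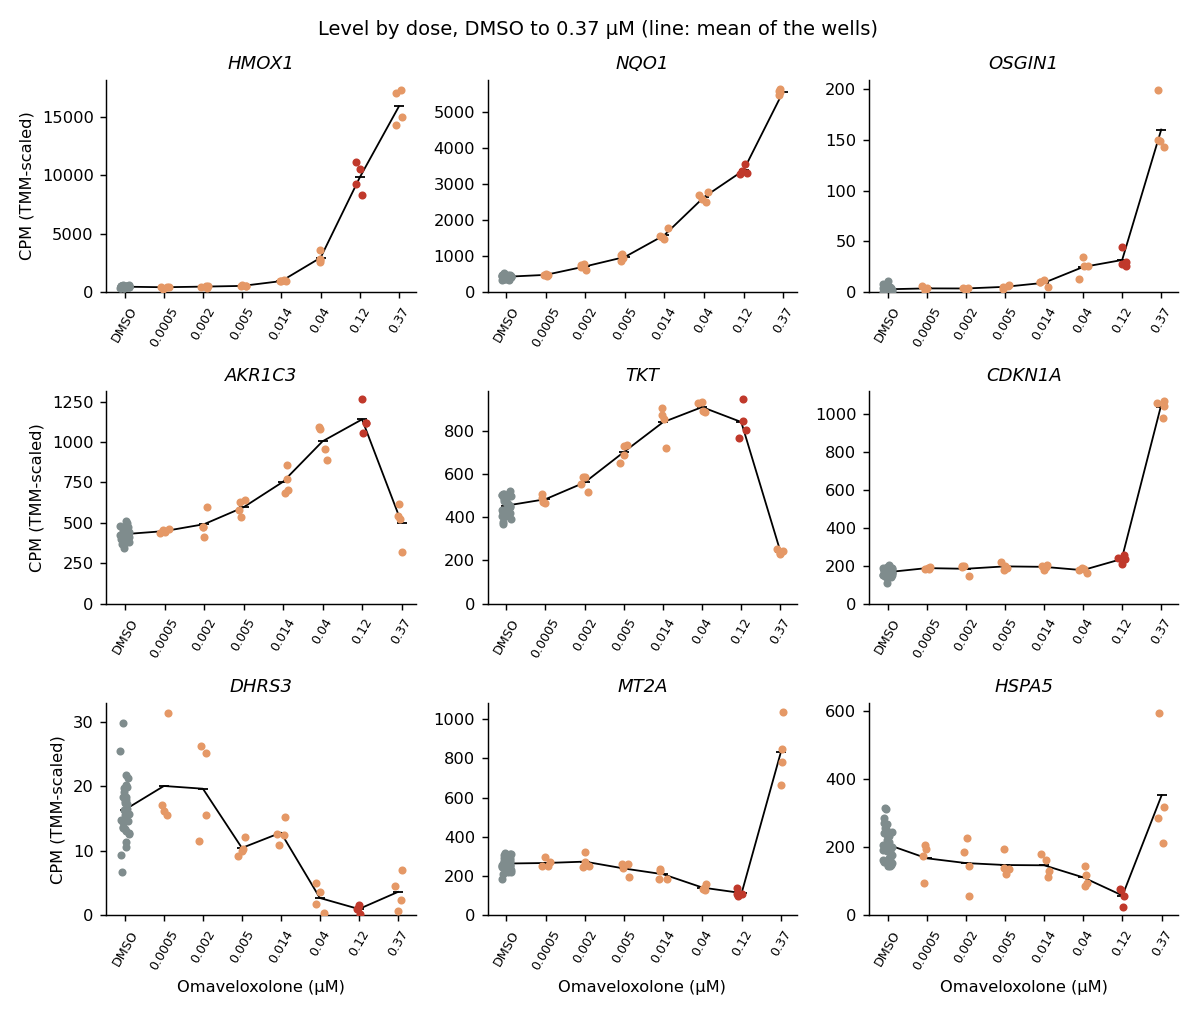
Level by dose for 9 genes, in TMM-scaled CPM, from DMSO (grey) through 0.12 µM (red) to 0.37 µM, with the other doses in orange and a line through the means. HMOX1 and NQO1 climb through 0.37 µM, AKR1C3 and TKT are lower at 0.37 µM than at 0.12 µM, and MT2A and HSPA5 are lowest at 0.12 µM among the groups shown.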

How the data were processed

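RNA from fibroblasts in a 384-well plate, 1250 cells seeded per well, was read by 3′ barcoded sequencing. Per the submitters' processing notes the reads went through kallisto and bustools against GRCh38, and the authors deposited raw counts per gene and well, with no normalization. Whether molecular barcodes were collapsed, and the annotation, are not given in the sources used here. The table held 23170 genes, and 1 pseudogene was left out of totals and fits. Gene positions and types came from GENCODE release 29, and gene symbols from a separate reference list of gene names.

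Wells were grouped by their labels. Genes that passed filterByExpr (minimum count 10) were fitted over all 72 wells with edgeR 4.0.16 (TMM, robust quasi-likelihood F test, R 4.3.3), with Benjamini-Hochberg adjustment and a threshold of 0.05. Levels are CPM on TMM-scaled library sizes, errors of log2 changes are standard errors derived from the F statistic, and errors of levels are SDs. Total counts per well were 6625579 to 8750002 at 0.12 µM and 4910840 to 8685540 in DMSO wells. Well measures used an exact two-sided permutation test. The alternatives were DESeq2 1.42.0 (size factors and Wald test), no filter, fewer groups in the fit, and DMSO wells of rows K and L. Further ones were plate side as a covariate, each plate side alone, a replicate block, the 0.0005 µM wells as reference, and each treated well left out.

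Named genes were the core NRF2 genes, the 20 largest called changes in each direction averaging at least 10 CPM, up to 5 called members of each list with the smallest adjusted p, the 2 highest uncalled members of each, and the 10 largest changes at the neighbouring dose steps. Other genes named were chosen after their values were seen, namely AFP, AIFM2, AKR1B10, AKR1C3, BLVRB, CAT, CCN5, COL3A1, EPHX1, GNPDA1, GPX1, GPX3, GSTM3, GSTP1, KLHL21, MGST1, NQO2, OSR2, PTGS2, TFRC, RGCC and AQP1. The lists and groups were chosen with earlier results of these data known, so their counts are descriptions. Listed genes that the table lacks were not analysed here. The labels' protocols give 16 DMSO wells per plate, and 32 wells carry that label. Some results of single genes are not reported here.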

Additional observations from a re-analysis of the deposited data

Results flagged for a closer look

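In 12 of 248 genes examined, 1 of the 4 wells at 0.12 µM lay far from the other 3, by a gap divided by the range of the 4 wells that passed Dixon's critical value for 4 samples. About 1 gene in 20 does so by chance. Well 3 was high for FGF7 (0.901), FADS2 (0.921), BDKRB1 (0.887), PDIA3 (0.842) and GAS6 (0.84). FGF7 had 40.8 CPM in that well and 4.55 to 8.12 CPM in the others, and FADS2, a fatty acid desaturase, had 195 CPM there and 91.1 to 99.3 CPM in the others. Well 1 was high for PLOD2 (0.942), a collagen lysyl hydroxylase, and for DHRS2 (1), which was at 0 in the other 3 wells. Well 2 was high for ZFAND5 (0.881), with 433 CPM against 314 to 328 CPM, and for MLX (0.834). Well 4 was high for COX4I1 (0.874) and RXRA (0.832) and low for PSMB4 (0.888), a proteasome subunit with 296 CPM there and 373 to 383 CPM in the others.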

How the results depend on the processing

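The calls against DMSO were 187 higher and 145 lower. Higher calls numbered 339 with no filter, 448 with the wells of the 2 groups alone, 379 without the 3.33 and 10 µM wells, 32 against DMSO wells in rows K and L, 114 and 93 on the left and right plate sides alone, and 59 against the 0.0005 µM wells. Lower calls numbered 480 by the DESeq2 Wald test, 462 with the 2 groups alone, 328 without the 2 high doses, 16 against rows K and L, 74 on the right side and 56 against the 0.0005 µM wells, and 72 to 139 with 1 well left out. With plate side as a covariate, 193 were higher and 171 lower, and 184 of the 187 rises and 145 of the 145 falls remained called. With the replicate block, 27 were higher and 21 lower. DMSO wells are numbered 1 to 32, so only DMSO wells 1 to 4, in rows A and B, shared a block with treated wells. Each lay on the plate side opposite the treated well of its number, so against DMSO this block did not match wells by position. Deviations of same-numbered wells correlated at -0.014, -0.280, -0.219 and -0.165 with DMSO wells and at 0.0926, 0.145, 0.349 and 0.123 with 0.04 µM wells, where the same number marks the same plate row and side. Not every correlation passed 0.1, so the block stayed an alternative. Against 0.04 µM, the 1 higher call became 2 by the Wald test, 4 with the 2 groups alone and 2 without the high doses. The 1 lower call became 15, 2 and 8 in the same settings, 0 with the replicate block and 0 on the left side, and 0 to 1 with 1 well left out. At 0.37 µM against 0.12 µM, the 360 higher calls became 803 with size factors, 1476 by the Wald test, 1143 with the 2 groups alone, 701 without the high doses, 123 with the block, 165 and 116 on the left and right sides, and 237 to 261 with 1 well left out. The 799 lower calls became 489 with size factors, 351 with the block, and 414 and 437 on the 2 sides. The difference in total counts was 1291880 against rows K and L and 771354 to 1479490 with 1 well left out, and that in mitochondrial mRNA was -0.418 percentage points against rows K and L. The longer promoter motif gave 4.02% and 1.63% of windows. Keeping the pseudogene in the counts, an alternative chosen after seeing the data, changed no count by over 1.5 times. The cause of these shifts was not tested. Several settings hold fewer wells, and among those some gave more calls and others fewer. Of the medians of gene lists under these settings, 97 of 816 moved by more than the spread between wells. No called gene among those named turned its direction. At these totals genes near 0, such as CXCL8, rest on few counts.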

Other observations

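Several smaller lists held calls of single genes. MYLK, myosin light chain kinase, was the 1 fall among 25 contractile genes, at 24.9 ± 3.87 CPM at 0.12 µM and 56.0 ± 10.6 CPM in DMSO wells (SD, n = 4 and 32). BNIP3, a mitophagy receptor of the hypoxia list, averaged 281 ± 5.41 CPM at 0.12 µM and 166 ± 24.2 CPM in DMSO wells, while ADM of the same list fell. RGCC, a regulator of cell cycle progression, averaged 121 ± 18.1 CPM at 0.12 µM and 48.9 ± 14.5 CPM in DMSO wells. AQP1, a water channel, averaged 3.43 ± 1.86 CPM at 0.12 µM and 15.0 ± 4.61 CPM in DMSO wells. BNIP3, RGCC, AQP1 and MYLK stayed called with any one treated well left out, and none of the 4 was called against only those DMSO wells that lie in rows K and L. RGCC and AQP1 were picked after their values were seen.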
